A study of Mus musculus with 4 samples.

Results

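The genes described here encode the machinery that moves proteins into, along and out of the photoreceptor cilium. They were chosen by a rule on names and a minimum level, with earlier results of these data known. It took genes named Ift, Bbs or Nphp with a number, together with 18 single names such as Cep290, Rpgr and Tulp1. Each had to have at least 10 normalized counts in at least 2 of the 4 libraries. The rule matched 43 names, of which 42 met the minimum, out of 43280 genes in the table and 18127 that met the same minimum. All 42 met it in all 4 libraries, so none entered through 1 group alone. Ift88os, the antisense transcript of Ift88, was the name below it, with 1.14 normalized counts in control 2L and 0 in the others. Rp2 had no row under that name. It is listed under its older symbol, Rp2h, so it is no member, and its values are given beside those of its partner genes.

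The light-sensitive outer segment of a rod or cone is a modified primary cilium without ribosomes, so every protein in it is made in the inner segment and carried through a narrow connecting cilium, the counterpart of the transition zone of other cilia. Intraflagellar transport (IFT) trains are built of a B complex, moved outward with kinesin, and an A complex, which takes part in the return by dynein, while the BBSome, a coat of Bardet-Biedl syndrome proteins, takes membrane proteins back out. Lipid-tailed proteins such as phosphodiesterase and transducin subunits travel separately, held by the carriers PDE6D and UNC119 and released in the cilium by the GTPase ARL3. Mutations in human versions of these genes cause retinitis pigmentosa, Leber congenital amaurosis and syndromes that join retinal degeneration with kidney disease.

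Messenger RNA was sequenced from whole dissected retinas. All mice were wildtype, their strain being given as C6/BL6J. From the age of 6 weeks the diabetic group was given streptozotocin (STZ), a toxin of pancreatic beta cells, as 5 injections of 50 mg/kg, one a day, and the control group citrate buffer. Retinas were taken at 18 weeks. Blood glucose was checked 10 days after the injections for hyperglycaemia above 25 mM. Each group had 2 libraries, named here by their column tags, 2L and 4R. No sample label reads 4R, and the labels do not name the animal behind each library. The p-values therefore describe only how far these libraries spread, which may be technical. The comparison asks how the retina of hyperglycaemic mice differs from that of controls. Libraries held 29352330 to 39299653 reads assigned to genes.

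The libraries carried the markers of retina, with rod genes at 11.8% and 12.9% of reads in controls 2L and 4R and 9.76% and 13.3% in STZ 2L and 4R. STZ 2L stood apart: 20 genes of the lens made up 8.88% of its reads, against 0.0179% in STZ 4R and 0.0168% and 0.00231% in the controls. Surface epithelium genes of cornea and conjunctiva took 0.0351% and 0.0339% in STZ 2L and 4R, against 0.00588% and 0.00256%. Genes of cells with motile cilia, which could also carry transport genes, took between 0.00258% (STZ 2L) and 0.00371% (STZ 4R) of reads, counting 12 listed genes. Mcidas, a regulator of multiciliated cells, read 0 normalized counts in control 4R and STZ 2L, 7.96 in control 2L and 1.65 in STZ 4R. Foxj1, the activator of motile cilium genes, read 191 and 149 in controls 2L and 4R and 194 and 159.6 in the STZ pair, without a shared direction. The 42 members took 0.405% and 0.414% of reads in controls 2L and 4R, 0.423% in STZ 4R and 0.322% in STZ 2L. These are shares of all reads, so the 8.88% taken by lens genes in STZ 2L lowers every other share in that library. How much of its lower rod and member shares this makes up was not tested. In whole retina, fewer photoreceptors and less RNA per photoreceptor cannot be told apart either.

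Ciliary genes of many animals carry an X-box in their promoters, the site of RFX transcription factors. RefSeq promoters (GRCm38.p6, 250 bases before to 50 after the start) were found for 36 of the 42 members. The X-box was searched on both strands as an arm GTTNCC, then 1 or 2 bases of any kind, then an arm GGNAAC. It stood in 2 of the 36, Bbs7 and Ift57, and in 0.836% of all 27025 genes with a promoter (0.766% of the 17491 coding ones). GTTGCC, 1 form of the first arm, which the full motif can contain, stood in 13 of 36 members and in 14.1% of all genes (14.4% of coding ones). These 3 promoters are shown because Bbs7 and Ift57 are the members with the full motif, and Pde6d is the member with the smallest p in the comparison of the groups. Capitals mark the X-box in the first pair and the single arm, here on the reverse strand as GGCAAC, in Pde6d.
Bbs7 (chr3:36613340-36613639, minus strand): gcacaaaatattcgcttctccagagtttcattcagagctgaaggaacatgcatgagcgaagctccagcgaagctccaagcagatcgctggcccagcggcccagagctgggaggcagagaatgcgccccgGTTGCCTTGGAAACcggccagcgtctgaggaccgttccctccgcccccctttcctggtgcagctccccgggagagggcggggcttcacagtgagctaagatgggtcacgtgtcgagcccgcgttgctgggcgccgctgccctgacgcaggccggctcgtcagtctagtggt
Ift57 (chr16:49699044-49699343, plus strand): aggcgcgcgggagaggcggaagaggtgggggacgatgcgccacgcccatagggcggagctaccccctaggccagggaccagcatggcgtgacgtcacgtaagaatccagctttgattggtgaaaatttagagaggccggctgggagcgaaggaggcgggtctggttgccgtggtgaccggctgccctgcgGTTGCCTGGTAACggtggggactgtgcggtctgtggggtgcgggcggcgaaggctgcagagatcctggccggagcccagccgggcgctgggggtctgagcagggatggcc
Pde6d (chr1:86582736-86583035, minus strand): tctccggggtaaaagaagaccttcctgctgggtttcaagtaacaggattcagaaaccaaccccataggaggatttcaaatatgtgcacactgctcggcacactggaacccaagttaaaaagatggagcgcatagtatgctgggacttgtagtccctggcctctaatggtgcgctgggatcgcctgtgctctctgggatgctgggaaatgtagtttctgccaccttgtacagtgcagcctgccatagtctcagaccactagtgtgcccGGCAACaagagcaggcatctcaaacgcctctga
In these windows the motif began 121 bases before the RefSeq start of Bbs7, 60 before that of Ift57, and at base 18 after that of Pde6d. Gene coordinates in this text are from GENCODE M21, whose starts differ from the RefSeq ones for these 3 genes. There Pde6d ends at 86582629 on the minus strand, so its whole window lies upstream of those coordinates. Of other letters searched on both strands, CCAAT stood in 22 of 36 member promoters and in 41.1% of all genes. The GC box GGGCGG stood in 22 of 36 and in 38.2% (49.2% of coding genes). TAATCC, the core of the site of the photoreceptor factor CRX, stood in 2 of 36, Bbs1 and Rpgrip1, and in 8.14% of all genes. The longer CTAATCC, which contains it, stood in 1 of 36, Rpgrip1, and in 2.34%. A match is a run of letters and not a site shown to be bound. Bbs7 and Ift57 had log2 fold changes of 0.11 and 0.094 between STZ and control, and their intervals included 0.

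Levels per length differed widely between the members in the controls. Tulp1, a tubby-like protein found mainly in photoreceptors and needed for delivery of rhodopsin to the outer segment, stood highest at 7396 ± 550.2 normalized counts per kilobase of summed exon length (control mean, SD, n = 2). It was followed by the cargo-releasing GTPase Arl3 at 2561 ± 336, the prenyl carrier Pde6d at 1943 ± 106, Ift20, the IFT-B subunit that also sits at the Golgi, at 1369 ± 173, and Tub, the founder of the tubby family, at 1354 ± 138. The last pair differed by less than their spread between controls. Near the bottom were Rpgr at 33.2 ± 0.769 and Rpgrip1l at 26.6 ± 0.264 normalized counts per kilobase, so the gate protein Rpgr read far below its partner Rpgrip1, at 791 ± 26.1. Of the IFT trains, Ift88 stood at 119 ± 0.0335 and Ift52 at 391 ± 38.3, and the BBSome ran from 253 ± 45 for Bbs5 to 877 ± 133 for Bbs2. Summed exon length covers all annotated transcripts of a gene, so a gene with long rare transcripts is read low on this scale. By deposited value, Tulp1 alone made up 38.3% and 35.1% of the members' summed normalized counts in controls 2L and 4R, and 34.3% and 33.5% in STZ 2L and 4R.

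**Figure D1:**
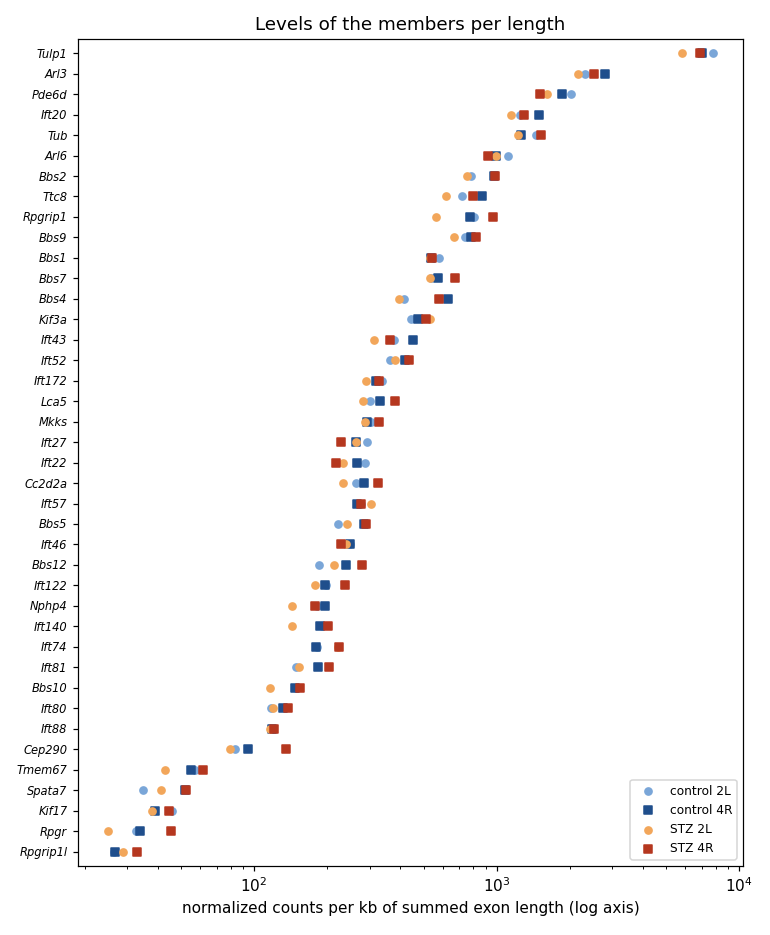
Normalized counts per kilobase of summed exon length (x axis, log scale) of 40 of the 42 members, ordered by their control mean, with 1 point per library. Tulp1 stood highest, Rpgr and Rpgrip1l stood near the bottom, and the 4 libraries of a gene lay close together beside the range between genes.

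No gene of the transport machinery passed the test between diabetic and control retina, and the differences measured were small. Of the 42 members 0 were called higher and 0 lower (limma, Benjamini-Hochberg adjusted p under 0.05, all 18127 genes), where 0% of all tested genes were called in either direction. Log2 fold changes of STZ over control, on the log2(normalized counts + 1) scale, ran from -0.32 for Pde6d to 0.31 for Ift74, with a median of -0.027 against -0.0057 over all tested genes. Of the members, 19 lay above 0 and 23 below, where 48.9% of all genes lay above. At an unadjusted p under 0.05, 0 members were higher and 0 lower, where 2.31% of all genes were higher and 0.447% lower. Standard errors ran from 0.15 to 0.32, and the 95% intervals of all 42 members lay within 2-fold in either direction, as they did for 66.7% of all genes. The interval reaching highest was that of Cep290, to 0.81, which shows the precision that 2 libraries a group gave. On recovered whole reads, edgeR's quasi-likelihood test, limma-voom and DESeq2 called 0 members each in either direction, where DESeq2 called 0.259% of all genes higher and the others 0%. In each of these tests 0 members had an unadjusted p under 0.05. Of all genes, the shares at that level were 2.88% higher and 0.392% lower in edgeR, 1.75% and 0.386% in limma-voom, and 2.65% and 0.281% in DESeq2.

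**Figure D2:**
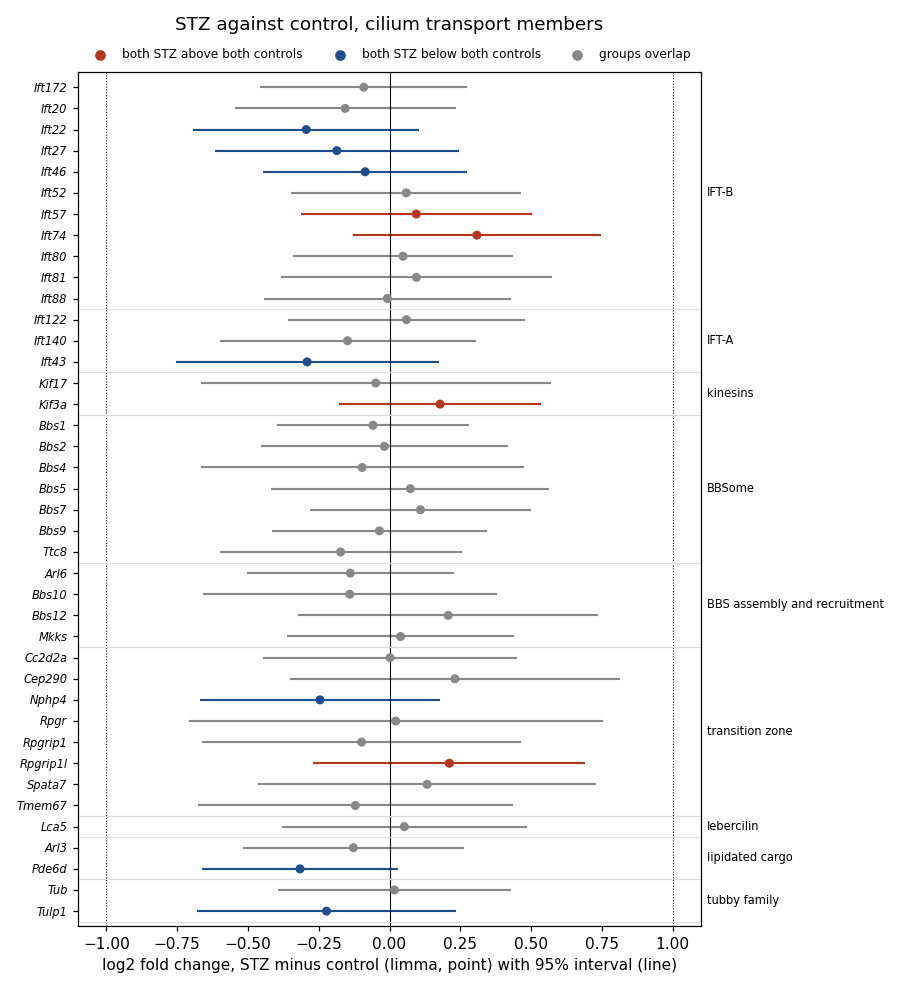
Log2 fold change of STZ over control for 40 of the 42 members (points) with their 95% intervals from limma (lines), grouped by role. Colour shows whether both STZ libraries lay above or below both controls, and every interval crosses 0 and lies between -1 and 1.

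Both STZ libraries lay above both controls for 4 members and below both for 8, that is 12 of 42, where 28.7% of all tested genes did so in either direction (14.3% above and 14.3% below). The 4 above were Ift74, Kif3a, Ift57 and Rpgrip1l, and the 8 below included Pde6d, Ift22, Ift27, Ift46, Ift43, Nphp4 and Tulp1. The share is near the background and says nothing about the members.

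Among the 11 IFT-B subunits, which form the scaffold of the train and bind tubulin and other cargo, 5 had fold changes above 0 and 6 below, with a median of -0.0076. Ift88 (chromosome 14, 57424062 to 57517936, mm10), the subunit whose partial loss causes photoreceptor degeneration in mice, read 550.4 and 550.2 normalized counts in control 2L and 4R, and 536 and 559 in STZ 2L and 4R. Its libraries were the most alike of all members, 1.04-fold between the highest and lowest, and the log2 fold change was -0.0076 ± 0.19 (SE), 95% interval -0.44 to 0.43 (limma, adjusted p = 0.999). Ift74 (chromosome 4, 94614491 to 94693229), which pairs with Ift81 to bind tubulin, read 481 and 476 in control 2L and 4R, and 591 and 595 in STZ 2L and 4R. Both STZ libraries were higher and the libraries of a group nearly equal, yet the difference, 0.31 ± 0.19 (SE), did not pass (limma, adjusted p = 0.999). Its partner Ift81 read 869 and 1068 in control 2L and 4R, and 894 and 1184 in STZ 2L and 4R, with overlapping groups and a high value in each 4R library. Ift22, a Rab-like GTPase of the train (chromosome 5, 136908150 to 136915404), read 1031 and 963 normalized counts in control 2L and 4R, and 842 and 784 in STZ 2L and 4R, lower in both STZ libraries at -0.29 ± 0.17 (SE) (limma, adjusted p = 0.999). Ift27, another Rab-like GTPase, which links trains to the exit of the BBSome, read 838 and 756 in control 2L and 4R, and 752 and 651 in STZ 2L and 4R, at -0.19 ± 0.19 (SE). Its control 4R and STZ 2L differed little, so the groups only just separated. Ift172 (chromosome 5, 31253277 to 31291116), a peripheral subunit involved in turning the train at the ciliary tip, read 2238 and 2100.2 in control 2L and 4R, and 1908 and 2172 in STZ 2L and 4R, low in STZ 2L alone, and stood at -0.091 ± 0.16 (SE). Ift20 read 1901 and 2274 in control 2L and 4R, and 1754 and 1985 in STZ 2L and 4R, at -0.16 ± 0.17 (SE), with the highest value in control 4R. The remaining subunits, Ift46, Ift52, Ift57 and Ift80, had fold changes between -0.086 and 0.094, each smaller than its own standard error. Ift46 read 1589.9 and 1593 in control 2L and 4R, and 1541 and 1459.7 in STZ 2L and 4R, and Ift57 792 and 761 in control 2L and 4R, and 867 and 792 in STZ 2L and 4R. For Ift57 the groups were separated by less than 1 normalized count, between control 2L and STZ 4R, and its exons overlap another annotated gene. Ift88 overlaps an exon of its antisense transcript, and since the strand setting of the counting is not known their reads cannot be told apart. Ift88os held almost none. How reads lying over both genes were counted is not given, so that low value does not settle the point.

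The IFT-A members were Ift122, Ift140 and Ift43, of which Ift140 and Ift122 belong to the core needed for return transport and for membrane protein entry. Ift140 (chromosome 17, 25016085 to 25099495) read 1586 and 1552 normalized counts in control 2L and 4R, and 1198 and 1674 in STZ 2L and 4R. The controls were alike, STZ 2L was lowest and STZ 4R highest, and the fold change was -0.15 ± 0.20 (SE) (limma, adjusted p = 0.999). Ift122 had the same order, with 2045 and 2029.8 in control 2L and 4R, and 1842 and 2447 in STZ 2L and 4R. Ift43 (chromosome 12, 86082541 to 86162459), a small peripheral subunit, read 621 and 743 in control 2L and 4R, and 516 and 597 in STZ 2L and 4R, lower in both STZ libraries at -0.29 ± 0.20 (SE) (limma, adjusted p = 0.999), though STZ 4R lay close under control 2L. Kif3a (chromosome 11, 53567379 to 53601967), a motor subunit of the heterotrimeric kinesin that drives trains outward, read 1593 and 1702 in control 2L and 4R, and 1902 and 1826 in STZ 2L and 4R. Both STZ libraries were higher, at 0.18 ± 0.16 (SE), 95% interval -0.18 to 0.54 (limma, adjusted p = 0.999). Kif17, the homodimeric ciliary kinesin, was far scarcer, at 42.5 against 459 normalized counts per kilobase for Kif3a in controls, and its groups overlapped, with 210.4 and 179 in control 2L and 4R, and 173 and 203 in STZ 2L and 4R, at a log2 fold change of -0.049 ± 0.27 (SE). Its exons overlap those of Sh2d5 on the same strand, so some reads may belong to either.

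The 7 BBSome members (Bbs1, Bbs2, Bbs4, Bbs5, Bbs7, Bbs9 and Ttc8) overlapped between the groups in every case, and their fold changes ran from -0.17 for Ttc8 to 0.11 for Bbs7. Bbs1 (chromosome 19, 4886878 to 4906628), the subunit that carries the most common human Bardet-Biedl mutation, read 4442 and 4134 normalized counts in control 2L and 4R, and 4091 and 4139 in STZ 2L and 4R, with -0.059 ± 0.15 (SE), 95% interval -0.40 to 0.28 (limma, adjusted p = 0.999). Its 4 libraries lay within 1.09-fold. Bbs4 (chromosome 9, 59321990 to 59353508) read 2518 and 3807 in control 2L and 4R, and 2394 and 3502 in STZ 2L and 4R, so the 4R library of each group was well above the 2L library, while the groups differed by -0.10 ± 0.25 (SE). The same order was found for Bbs2 and Ttc8. Ttc8 (chromosome 12, 98920574 to 98983238), also known as Bbs8, read 2734 and 3288 in control 2L and 4R, and 2337 and 3027 in STZ 2L and 4R, at -0.17 ± 0.19 (SE). Arl6 (chromosome 16, 59612949 to 59639391), the GTPase that recruits the BBSome to membranes, read 2344 and 2076 in control 2L and 4R, and 2085 and 1926 in STZ 2L and 4R, with STZ 2L just above control 4R and a fold change of -0.14 ± 0.16 (SE) (limma, adjusted p = 0.999). The chaperonin-like genes Mkks, Bbs10 and Bbs12, which help to assemble the BBSome, also had overlapping groups. Bbs10 read 454 and 449 in control 2L and 4R, and 355 and 472 in STZ 2L and 4R. Bbs12 was highest in STZ 4R, at 676 against 519 normalized counts in STZ 2L, but its controls also differed, at 451 and 583. Exons of Mkks, Bbs12, Bbs4 and Arl6 overlap those of other annotated genes, so their reads are less certain.

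The widest differences were those of the transition zone genes Rpgr, Rpgrip1 and Cep290, and they lay between the STZ libraries. Rpgr (chromosome X, 10073621 to 10216920), the X-linked gene behind much human retinitis pigmentosa, read 237 and 244 normalized counts in control 2L and 4R, and 181 and 328 in STZ 2L and 4R. The controls were alike and the STZ libraries stood on opposite sides of them, so the mean difference was 0.022 ± 0.32 (SE), with a 95% interval of -0.71 to 0.75 (limma, adjusted p = 0.999). Rpgrip1 (chromosome 14, 52110704 to 52163546), which anchors Rpgr in the connecting cilium, did the same at a much higher level, with 9842 and 9394 in control 2L and 4R, and 6849 and 11772 in STZ 2L and 4R, at a log2 fold change of -0.10 ± 0.24 (SE). Cep290 (chromosome 10, 100487558 to 100574840), the protein of the links between microtubules and membrane that is mutated in Leber congenital amaurosis, read 966 and 1096 in control 2L and 4R, and 926 and 1574 in STZ 2L and 4R. Here STZ 4R alone stood apart, and the fold change was 0.23 ± 0.25 (SE) (limma, adjusted p = 0.999). Tmem67, the membrane protein meckelin, and Cc2d2a, a scaffold of the same module, followed the order of Rpgr, with log2 differences of 0.53 and 0.48 between STZ 4R and STZ 2L. Nphp4 (chromosome 4, 152476706 to 152563183), a nephrocystin of the zone, read 1102 and 1188 in control 2L and 4R, and 865 and 1076 in STZ 2L and 4R, lower in both STZ libraries at -0.25 ± 0.18 (SE) (limma, adjusted p = 0.999). Rpgrip1l, the more widely expressed relative of Rpgrip1, was higher in both STZ libraries, with 388 and 393 in control 2L and 4R, and 422 and 485 in STZ 2L and 4R, at a log2 fold change of 0.21 ± 0.21 (SE). Spata7, which keeps the zone of photoreceptors stable along the connecting cilium, read 350.3 and 525 in control 2L and 4R, and 418 and 529 in STZ 2L and 4R, with control 2L lowest. Its log2 difference, 4R minus 2L, was larger between the controls, at 0.58, than between the STZ libraries, at 0.34. Lca5 (chromosome 9, 83390293 to 83441127), lebercilin, an axonemal protein that binds IFT, read 1888 and 2092 in control 2L and 4R, and 1775 and 2393 in STZ 2L and 4R, at 0.052 ± 0.19 (SE). Exons of Rpgr, Rpgrip1, Cep290 and Tmem67 overlap other annotated genes, 13 members in all did so, and their reads may include some of those genes.

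For the carriage of lipid-tailed proteins, Pde6d (chromosome 1, 86542994 to 86582629), which shields prenyl tails of phosphodiesterase and rhodopsin kinase, read 4394 and 4068 normalized counts in control 2L and 4R, and 3504 and 3291 in STZ 2L and 4R. The controls averaged 4231 ± 231 and the STZ libraries 3397 ± 151 (SD, n = 2), so both STZ libraries lay below both controls by more than the spread within either group. It had the smallest p of all members, 0.0674 unadjusted, with -0.32 ± 0.15 (SE), 95% interval -0.66 to 0.028, and did not pass (limma, adjusted p = 0.999). Arl3 (chromosome 19, 46531096 to 46573198), the GTPase that unloads Pde6d, read 5784 and 6968 in control 2L and 4R, and 5384 and 6270.3 in STZ 2L and 4R, at -0.13 ± 0.17 (SE), with overlapping groups. Rp2h, the GTPase-activating protein that switches Arl3 off, read 239 and 255 in control 2L and 4R, and 257 and 253 in STZ 2L and 4R, at 0.047 ± 0.24 (SE) (95% interval -0.50 to 0.59). Of the tubby genes, Tulp1 (chromosome 17, 28351515 to 28365222) read 51878 and 46693 in control 2L and 4R, and 38653 and 46031 in STZ 2L and 4R. Both STZ libraries were lower, STZ 4R by little, and the fold change was -0.22 ± 0.20 (SE) (limma, adjusted p = 0.999). Tub had overlapping groups, with 12181 and 10539 in control 2L and 4R, and 10256 and 12823 in STZ 2L and 4R. Its exons overlap those of other annotated genes.

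**Figure D3:**
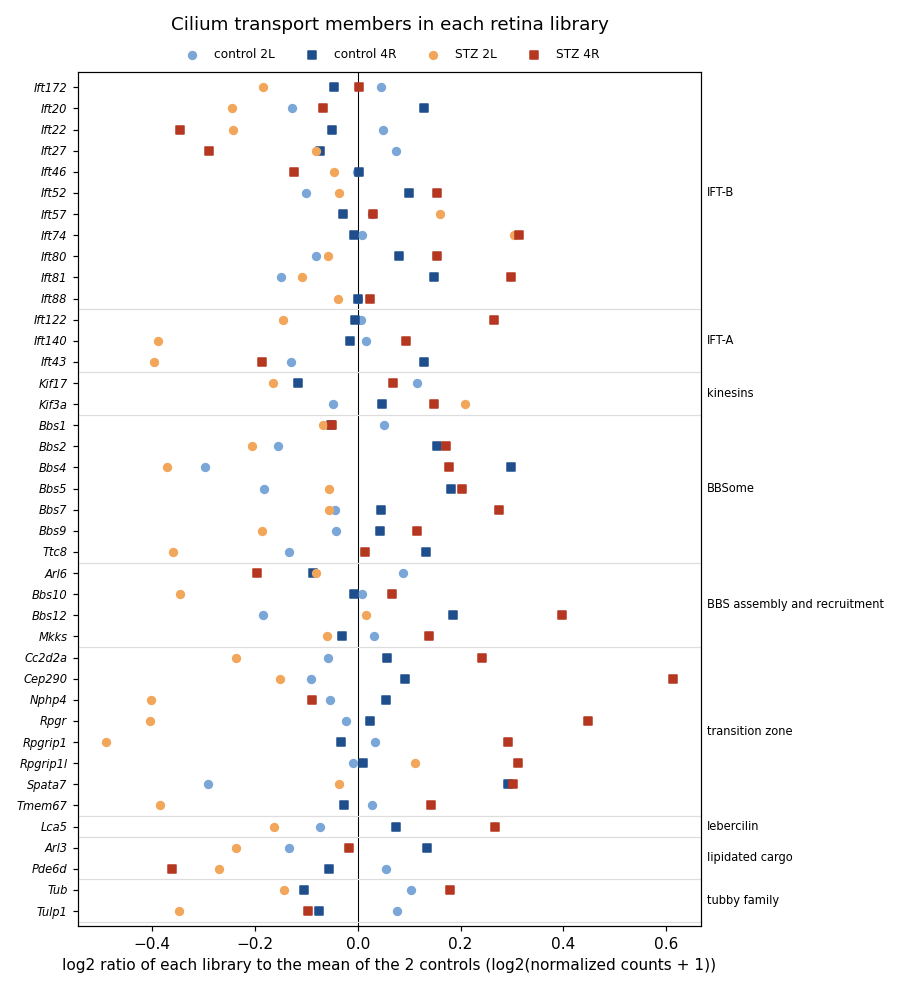
Log2 ratio of each library to the mean of the 2 controls for 40 of the 42 members, grouped by role, with circles for 2L and squares for 4R libraries. STZ 2L lies left of the controls for 29 of those drawn and STZ 4R right of them for 25.

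The STZ libraries differed from each other, in 1 direction for most members. The median absolute log2 difference over the members was 0.24 between the STZ libraries and 0.11 between the controls, against 0.28 and 0.25 over all tested genes. STZ 4R read above STZ 2L for 35 of 42 members, where 49.6% of all tested genes did so. STZ 2L lay below both controls for 30 members (35.4% of all genes), and STZ 4R above both for 26 (32.6%). STZ 2L was the lowest of the 4 libraries for 26 members (29% of all genes) and STZ 4R the highest for 24 (23.6%). STZ 2L lay below and STZ 4R above both controls at once for 15 members (10.8% of all genes): Cep290, Ift140, Bbs7, Bbs10, Tmem67, Rpgrip1, Ift122, Lca5, Mkks, Bbs9, Tub, Bbs2, Rpgr, Ift88 and Cc2d2a. The median log2 ratio to the control mean over the members was 0.14 for STZ 4R and -0.16 for STZ 2L, against 0.0054 and -0.0094 over all tested genes. The median of the fold changes accordingly stood at 0.14 without STZ 2L, with 30 members above 0 (50.7% of all genes), and at -0.16 without STZ 4R, with 6 above 0 (48.6%), and 0 members were called in either fit (limma). With 2 libraries in the group, none of these shares is a comparison of conditions.

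By role, the difference between STZ 4R and STZ 2L had a median log2 of 0.48 over the 9 transition zone genes, all 9 higher in STZ 4R, and 0.41 over the 3 IFT-A genes. It was 0.33 over the 7 BBSome genes, again all higher in STZ 4R, and 0.061 over the 11 IFT-B genes, 7 of them higher. Between the controls, 4R also read above 2L for 6 of the 7 BBSome genes and 7 of the 9 transition zone genes. It did so for 1 of 3 IFT-A and 5 of 11 IFT-B genes. Over all 42 members the count was 23, where it was 9109 of all 18127 tested genes. The median absolute log2 difference between the controls was 0.27 over the BBSome and 0.11 over the transition zone, so the BBSome difference between 4R and 2L was of similar size in both groups. Single genes reached 0.85 (Rpgr), 0.78 (Rpgrip1) and 0.76 (Cep290), against 0.047, -0.067 and 0.18 between the controls. The 7 members higher in STZ 2L were Pde6d, Ift22, Kif3a, Ift27, Arl6, Ift46 and Ift57, with Ift27 the farthest, at a log2 difference of -0.21. In the same libraries the 18 rod genes had median log2 ratios to the controls of 0.045 for STZ 4R and -0.22 for STZ 2L, and 15 of the 18 read higher in STZ 4R. The 11 genes listed for cones had medians below the controls in both, at -0.19 for STZ 4R and -0.38 for STZ 2L. Of these 11 genes, 10 had fold changes below 0 and 1 above, where 48.9% of all tested genes lay above. For 6 of them both STZ libraries lay below both controls (14.3% of all genes). At an unadjusted p under 0.05, 2 were lower (0.447% of all genes) and 0 higher (2.31%), while 0 were called (limma). The 1 above 0 was Gucy2f, which is not particular to cones. It read 4813 and 3890 in controls 2L and 4R, and 4211 and 4694 in STZ 2L and 4R. Rhodopsin read 2248948 normalized counts in STZ 4R but 1664983 in STZ 2L, against 1897572 and 2005926 in controls 2L and 4R. Of the 10 Müller glia genes, 5 read higher in STZ 4R. The part that the rod or cone genes, or the lens reads of STZ 2L, had in the difference was not tested. Lens and surface epithelium genes were then left out and the recovered reads scaled by library totals. The median log2 fold change between the groups was -0.00093 over the members, with 0 called, and 0.020 over all tested genes. In the main fit these medians were -0.027 and -0.0057. That run changed the scaling as well as the genes, so it does not give the part of the lens reads.

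**Figure D4:**
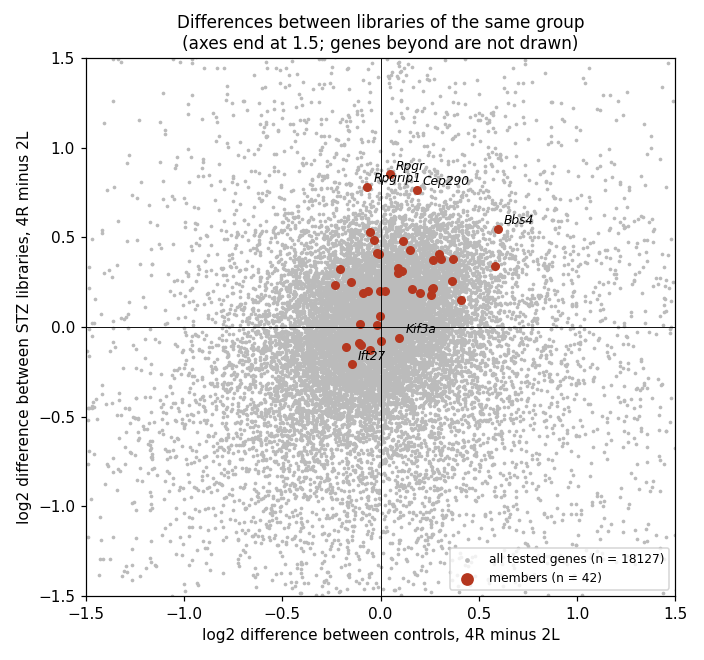
Log2 difference between the 2 STZ libraries (y axis) against that between the 2 controls (x axis), 4R minus 2L, for all tested genes (grey) and the members (red). Of the 42 members 35 lie above 0 on the y axis, and Rpgr, Rpgrip1 and Cep290 lie highest.

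Longer members differed more between the STZ libraries. Across the 42 members, the log2 difference between STZ 4R and STZ 2L had a Spearman correlation with summed exon length of 0.49, and across 17184 tested genes with a length it was 0.27. The difference between the controls had correlations of -0.16 and -0.11, and the fold change between the groups 0.16 and 0.20. Genes are not independent replicates and all points of a set share the same 2 libraries, so these values are a description only. The 22 members with at least 5 kb of exon had a median difference of 0.33, with 21 higher in STZ 4R, and the 20 shorter ones 0.19, with 14 higher. Over all tested genes the medians were 0.12 for the 6252 genes of at least 5 kb and -0.10 for the 10932 shorter ones, so the members' medians stood above those of all genes in both classes. Cep290 has 11.6 kb of exon and Rpgrip1 12.2 kb, while Pde6d has 2.18 kb and Ift43 1.65 kb. The length split was chosen after the values were seen. What length stands for in these libraries, RNA quality included, was not tested.

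**Figure D5:**
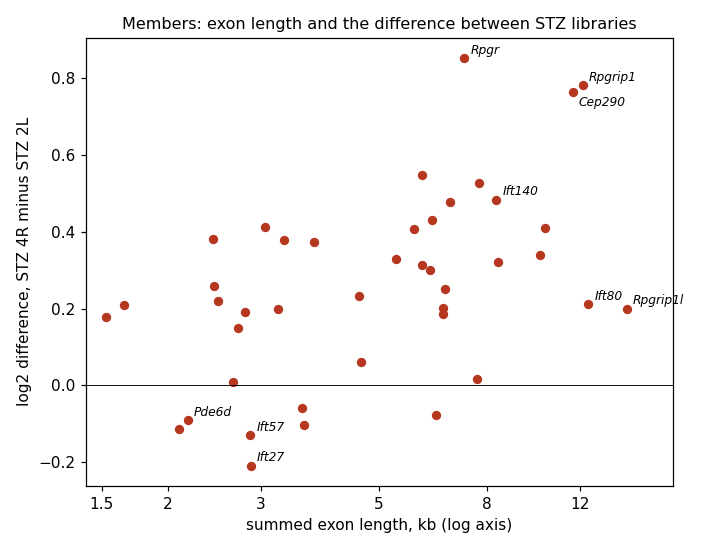
Log2 difference between STZ 4R and STZ 2L (y axis) of the 42 members against summed exon length in kilobases (x axis, log scale). Rpgr, Rpgrip1 and Cep290 lie highest, Pde6d and Ift27 are short members below 0, and Ift80 and Rpgrip1l are long members with smaller differences.

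Ciliary genes outside the naming rule were examined in the same way. Of 64 tested genes, which include IFT subunits under other names, the ciliary dynein, further cargo carriers and transition zone, basal body and rootlet genes, limma called 0 in either direction, and at an unadjusted p under 0.05 it also found 0. Their median log2 fold change was -0.048, with 29 above 0 and 35 below. STZ 4R read above STZ 2L for 47 of 64. The 4 with the smallest p were Pcm1, a scaffold of the satellites around the basal body, Tmem237 and Tctn1, both of the transition zone, and Wdr34, an intermediate chain of the ciliary dynein. Pcm1 read 1881 and 1916 normalized counts in control 2L and 4R, and 2090.2 and 2595 in STZ 2L and 4R, at 0.29 ± 0.17 (SE). Tmem237 read 2409 and 2604 in control 2L and 4R, and 1957 and 2283 in STZ 2L and 4R, at -0.24 ± 0.16 (SE), and Tctn1 759 and 625 in control 2L and 4R, and 571 and 574 in STZ 2L and 4R, at -0.27 ± 0.20 (SE). Wdr34 read 1367 and 1218 in control 2L and 4R, and 1135 and 1098 in STZ 2L and 4R, at -0.21 ± 0.17 (SE). None of these 4 passed (limma, adjusted p = 0.999). They were picked for their small p, and over the whole list the groups did not overlap for 14 of 64 genes (21.9%), fewer than the 28.7% of all tested genes.

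In the authors' deposited table, 0.281% of the 18478 genes with an adjusted p were called higher and 0% lower, and 0 of the 42 members were called. The log2 fold changes there were -0.32 for Pde6d, 0.31 for Ift74, 0.28 for Cep290 and -0.22 for Tulp1, and the adjusted p in the authors' deposited table was 0.99973 for every member.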

How the data were processed

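Retina mRNA of 2 control and 2 STZ libraries was sequenced on Ion Torrent. Per the labels' protocols, reads were analysed in Torrent Suite 5.4.0, aligned to mm10 with STAR and then Bowtie2, and counted per gene with HTSeq and Picard. Annotation release and strand setting: not given in the sources used here. The authors deposited a signal, the gene's read count over a size factor, beside a mean, a log2 fold change with its error, a test score and p-values raw and adjusted. Groups came from the titles. Columns tagged 2L match a label of their group. Those tagged 4R name the group but match no sample label, so they were used only as libraries of their group. The column names carry another time tag than the protocols. All values were whole multiples of 1 read (1.14, 1.01, 1.06 and 0.827 normalized counts in controls 2L and 4R and in STZ 2L and 4R), to within 0.01 reads.

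Genes with at least 10 normalized counts in 2 libraries (18127) were tested with limma 3.58.1 (R 4.3.3), treatment being the only term and the values log2(value + 1). The prior followed the mean and had 6.17 degrees of freedom, and tests were two-sided with Benjamini-Hochberg adjustment at 0.05. This scale understates changes of low genes. The fit was run on simulated data whose planted changes were larger than any measured for the members. That run therefore does not show how well changes of the members' size would be found. Whole reads recovered from the deposited signal were tested with edgeR 4.0.16, limma-voom and DESeq2 1.42.0. Coordinates and exon lengths are from GENCODE M21 (GRCm38, the same assembly as mm10). Members and lists were chosen with earlier results of these data known. Fold changes are given for 11 of the 12 members with the smallest p, for a fixed list of 16 with a row, and for the 4 other ciliary genes with the smallest p. Bbs7 and Ift57 were added for their motif, and the length split and motifs were chosen, after values were seen. Values of 2 members are not reported here.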

Additional observations from a re-analysis of the deposited data

How the results depend on the processing

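0 members were called higher or lower under every alternative run: each library left out, TMM and quantile scaling, robust moderation, pseudocounts of 0.5 or 5, a minimum of 50 or none, the 3 tests on recovered reads and, chosen after seeing the data, rescaling without lens and surface epithelium genes. Over all genes the count called higher was 13 with no filter, 3 with robust moderation, 47 with DESeq2 and 11 to 572 with 1 library left out, where 0 to 39 were called lower. Such fits take the spread of the lone library to be that of the other group. The members' median ran from -0.16 (without STZ 4R) to 0.14 (without STZ 2L), and that of the other ciliary genes from -0.15 (without STZ 4R) to 0.039. Directions turned with a library left out for Ttc8 (-0.36 to 0.014), Ift88 (-0.038 to 0.023), Ift172 (-0.18 to 0.0024), Ift140 (-0.39 to 0.093), Kif17 (-0.16 to 0.068), Bbs4 (-0.39 to 0.20), Cep290 (-0.15 to 0.61), Rpgr (-0.40 to 0.45), Rpgrip1 (-0.49 to 0.29), Lca5 (-0.16 to 0.27) and Arl3 (-0.26 to 0.0066). Ift88 also turned to 0.0021 with TMM, 0.0026 with edgeR, 0.0035 with limma-voom and 0.018 with the rescaling, and Rpgr to -0.068 with quantile normalization. The cause was not tested. The other 16 of 27 named genes kept their direction throughout, Pde6d between -0.37 and -0.26 and Ift74 between 0.30 and 0.32 over the omissions. The labels do not say what libraries with the same tag, 2L or 4R, have in common. Over all tested genes their deviations had a correlation of 0.0988. A replicate block by tag changed no call: 0 members were called and the median stayed -0.027. Pde6d then had an unadjusted p of 0.0417 (limma, adjusted p = 0.986). With 2 libraries a group, the interval of Cep290 reached 0.81 log2 units above 0.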
